A study of Mus musculus with 12 samples.

Results

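The genes described here are the ligands and receptors of platelet-derived growth factor (PDGF) in the mouse: the receptors Pdgfra and Pdgfrb, the receptor-like gene Pdgfrl, and the ligand genes Pdgfa, Pdgfb, Pdgfc and Pdgfd. They were chosen by gene symbol in the deposited transcript tables and are 7 of 14610 genes with a transcript in any table, and all 7 were listed. RNA of mouse neural stem cells was sequenced in 4 groups of 3 libraries: K27M mutant histone H3.3 with the EZH2 inhibitor EPZ6438 (3 µM for 12 days), wild-type H3.3 with the same inhibitor, K27M with the solvent DMSO, and wild-type H3.3 with DMSO. The sample titles of all 4 groups name PDGFB, so the controls carry that growth factor as well, and the series describes the cells as a mouse model of diffuse intrinsic pontine glioma. All cells grew on a coated surface in stem cell medium with human EGF and bFGF, so other growth factors were present throughout. The labels do not say whether the libraries of a group came from separate cultures, so the p-values below measure only the spread between these libraries, which may be technical, nor do they say how many clones each genotype stands for. Library totals ran from 7912666 to 24105862 estimated counts, and the K27M DMSO libraries were the deepest, each with at least 22069381.

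PDGF ligands are secreted dimers. PDGF-A and PDGF-B are cut to their mature form inside the cell by proprotein convertases, while PDGF-C and PDGF-D leave the cell with a CUB domain that extracellular proteases remove. The α receptor, encoded by Pdgfra, binds A, B and C chains and is the growth and survival receptor of oligodendrocyte precursors; the β receptor, encoded by Pdgfrb, binds B and D chains and marks pericytes and mesenchymal cells. Pdgfrl encodes a protein that resembles the ligand-binding part of the receptors and has no kinase domain. EZH2 is the histone methyltransferase within Polycomb repressive complex 2. Its target is lysine 27 of H3, and the K27M protein interferes with it.

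The promoters of a gene that was near 0 in DMSO and higher with the inhibitor (Pdgfd), of the upstream start of the α receptor gene (Pdgfra) and of a ligand gene with small changes (Pdgfa) are printed to show how they differ in CG dinucleotides, the letters C then G, which read the same on both strands and stand in capitals. The sequences are from RefSeq on GRCm38.p6, each on the strand of its gene: chr9:6168236-6168485 on the plus strand for Pdgfd, chr5:75152001-75152250 on the plus strand for Pdgfra and chr5:138995038-138995194 on the minus strand for Pdgfa.
Pdgfd: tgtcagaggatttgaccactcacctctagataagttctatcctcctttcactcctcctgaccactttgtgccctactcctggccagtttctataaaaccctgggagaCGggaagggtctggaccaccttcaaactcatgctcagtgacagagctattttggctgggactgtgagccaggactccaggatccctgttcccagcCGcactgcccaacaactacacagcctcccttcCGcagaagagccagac
Pdgfra: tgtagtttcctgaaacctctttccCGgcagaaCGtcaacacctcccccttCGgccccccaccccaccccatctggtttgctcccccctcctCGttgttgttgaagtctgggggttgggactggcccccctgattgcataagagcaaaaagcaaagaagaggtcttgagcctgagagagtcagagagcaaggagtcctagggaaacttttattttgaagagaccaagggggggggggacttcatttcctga
Pdgfa: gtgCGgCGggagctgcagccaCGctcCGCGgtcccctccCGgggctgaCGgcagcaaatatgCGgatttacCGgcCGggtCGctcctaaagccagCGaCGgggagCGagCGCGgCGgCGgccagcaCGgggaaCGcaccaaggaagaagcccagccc
The Pdgfd stretch held 3 CG in 250 bases, and 71.0% of 32851 mouse promoters of the same length held as many or more. The Pdgfra stretch held 4, with 62.2% of promoters at or above it, and the median promoter held 6. It lies just before Pdgfra-201, while Pdgfra-202, the transcript with most of the counts in every library, starts 3648 bases after its end. The shorter Pdgfa stretch of 157 bases ends at the start of Pdgfa-202 and held 20, a number reached by 4.42% of promoters cut to that length, against a median of 3. A second Pdgfa stretch of 250 bases, at chr5:138994282-138994531 before the non-coding Pdgfa-207, held 19, with 19.7% of promoters at or above it. The RefSeq promoter table matched 4 of the 7 genes, Pdgfc being the other one. These counts describe the windows and say nothing of methylation or binding there.

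Some members were split over several transcripts, and the stretches that set these transcripts apart, from the GENCODE M21 transcripts on GRCm38, are printed next with stop codons in capitals. Pdgfa-201 ends its coding sequence in exon 6 at chr5:138978635-138978690 on the minus strand, which gives the long PDGF-A chain with a basic tail known to hold the protein at the cell surface. Pdgfc-202 holds an extra exon with a stop at chr3:81131018-81131073 on the plus strand and is annotated as a target of nonsense-mediated decay. Pdgfd-202 holds a short extra piece of exon 2 at chr9:6288472-6288489 on the plus strand.
Pdgfa-201 exon 6: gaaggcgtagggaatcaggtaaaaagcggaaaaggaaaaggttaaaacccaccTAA
Pdgfc-202 extra exon: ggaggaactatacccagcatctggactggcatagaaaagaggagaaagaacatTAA
Pdgfd-202 extra bases: agagcaatcacctcacag

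Levels between genes were compared per length, as estimated counts divided by annotated transcript length. Only transcripts listed in every deposited comparison were used, with their sum set to 1000000 in every library. Pdgfd-202 and Pdgfra-201 were left out by this rule, so Pdgfd and Pdgfra stand here for Pdgfd-201 and Pdgfra-202. In K27M cells with the inhibitor the mean length-scaled level was 67.7 for Pdgfb, 44.8 for Pdgfa, 18.0 for Pdgfc, 5.95 for Pdgfra, 5.10 for Pdgfd, 4.47 for Pdgfrl and 1.97 for Pdgfrb. The libraries of Pdgfra (5.35 to 6.49) and Pdgfd (4.69 to 5.52) overlapped in that order, and no other neighbours did. Pdgfd-202, left out here, held 12.3 to 24.2% of Pdgfd counts in these libraries. The order of Pdgfra and Pdgfd with the inhibitor therefore need not hold for all their transcripts. In wild-type cells with the inhibitor the order was the same down to Pdgfra, and Pdgfrl (5.85 to 7.15) then overlapped with Pdgfd (5.48 to 6.48). In K27M cells with DMSO the levels were 39.9 for Pdgfb, 34.0 for Pdgfa, 16.3 for Pdgfc, 11.01 for Pdgfra, 2.18 for Pdgfrl, 0.379 for Pdgfd and 0.198 for Pdgfrb. Wild-type cells with DMSO gave 58.4, 37.0, 11.4, 8.90 and 1.70 for the same first 5 genes, and 0.140 for Pdgfrb and 0.0531 for Pdgfd at the bottom, where the libraries of these 2 genes overlapped (0.0760 to 0.184 and 0 to 0.113). The ligand gene Pdgfb was therefore the most abundant member in all 4 groups, and Pdgfrb and Pdgfd were the least abundant with DMSO. Whether the introduced PDGFB adds reads to mouse Pdgfb is not given in the labels, so the Pdgfb level is that of the reads assigned to the mouse transcript.

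Levels of single genes are given below as CPM, the estimated counts per 1000000 counts of the library after TMM scaling.

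The ratio of the receptor transcripts was lower in every inhibitor library than in every DMSO library. The length-scaled level of Pdgfra was 2.66 to 3.27 times that of Pdgfrb in the K27M libraries with the inhibitor and 4.10 to 5.52 times in the wild-type libraries with the inhibitor. With DMSO it was 45.9 to 72.0 times in K27M and 47.5 to 124 times in wild-type libraries. The ratios with DMSO rest on few Pdgfrb counts, 7.82 to 12.7 per K27M library and 1.94 to 6.83 per wild-type library.

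**Figure D1:**
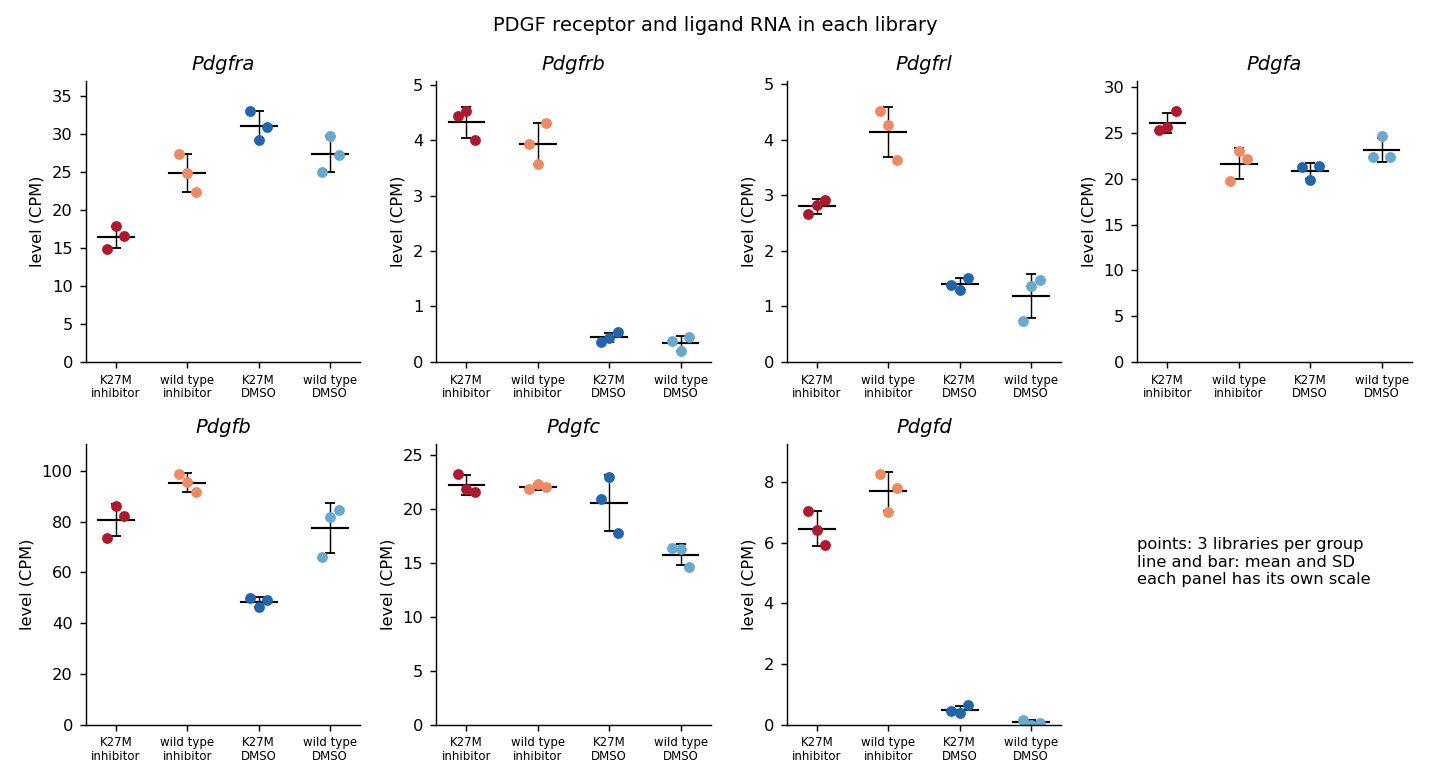
CPM of the 7 genes in each library (points) with the group mean and SD (line and bar), the groups being K27M with the inhibitor, wild type with the inhibitor, K27M with DMSO and wild type with DMSO from left to right, each panel with its own axis from 0. Pdgfrb and Pdgfd stand near 0 in all DMSO libraries and well above it in all inhibitor libraries, while Pdgfra is lowest in K27M cells with the inhibitor.

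Pdgfrb, the β receptor gene, lies on chromosome 18 and had a single listed transcript. It had 4.441, 4.524 and 3.995 CPM in K27M cells with the inhibitor, against 0.363, 0.432 and 0.534 CPM in K27M cells with DMSO. Wild-type cells held 3.93, 3.57 and 4.32 CPM with the inhibitor, against 0.370, 0.190 and 0.455 CPM with DMSO. Every inhibitor library stood above every DMSO library. The log2 fold change was 3.22 ± 0.23 (SE; adjusted p = 2.04e-06, edgeR's quasi-likelihood test with Benjamini-Hochberg adjustment over all genes tested) in K27M cells and 3.43 ± 0.31 (adjusted p = 0.000265, same test) in wild-type cells, with n = 3 in each group. The ratio of summed counts was 9.84 in K27M cells (95% exact interval 6.64 to 15.0, counting error only) and 10.6 in wild-type cells (6.08 to 20). The gene passed the filter on low counts in these comparisons through its inhibitor libraries, so that having passed it had to differ.

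Between genotypes Pdgfrb gave no difference past the test. With the inhibitor the K27M over wild-type log2 fold change was 0.15 ± 0.17 (edgeR adjusted p = 0.704), and with DMSO the gene was below the filter, with 30 counts in K27M against 14 in wild-type libraries, a ratio of 1.21 per library size with a counting interval from 0.623 to 2.47. The inhibitor response differed between genotypes by -0.18 ± 0.38 on the log2 scale (adjusted p = 0.819). In bulk RNA, more cells with a transcript and more of it per cell cannot be told apart, here and below.

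Pdgfd, whose protein is a ligand of the β receptor, showed the widest span of the 7 genes. The CPM of its main transcript, Pdgfd-201, was 7.06, 6.41 and 5.92 in K27M cells with the inhibitor, against 0.442, 0.397 and 0.631 in K27M cells with DMSO. In wild-type cells it was 8.272, 7.003 and 7.805 with the inhibitor, against 0.152, 0 and 0.0666 with DMSO, where the 3 libraries together held 3 counts. No DMSO library reached any inhibitor library. The ratio of summed counts was 13.1 (95% exact interval 9.09 to 19.3) in K27M cells and 96.9 (32.8 to 473) in wild-type cells. The fitted log2 fold change was 3.76 ± 0.20 (edgeR adjusted p = 2.27e-07) in K27M cells and 6.46 ± 0.40 (adjusted p = 5.99e-05) in wild-type cells, the second depending on how the fit treats counts near 0. The K27M fit sums Pdgfd-201 and Pdgfd-202, while the wild-type fit holds Pdgfd-201 alone, since Pdgfd-202 was not listed for it. Of the 3 wild-type DMSO counts 2 were in replicate 1. Without it the count ratio in wild-type cells was 191 (34.0 to 7578), resting on 1 count, and the fitted change was 7.24. Like Pdgfrb, the gene passed the filter through the inhibitor libraries alone.

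Between the DMSO groups Pdgfd was below the filter for the test. There were 34 counts in K27M against 3 in wild-type DMSO libraries, and every K27M library was above every wild-type library. The ratio was 6.40 with a counting interval of 2.01 to 32.6, or 12.6 (2.12 to 513) without wild-type DMSO replicate 1. Without the filter edgeR put K27M over wild type at 2.60 on the log2 scale (adjusted p = 0.0148). Pdgfd also passed the filter when a wild-type DMSO library was left out, and was then at 2.18 to 3.51 (adjusted p 0.00666 to 0.0595). It passed there through its K27M libraries alone, so that having passed it had to be higher in K27M cells. The authors' deposited table gave Pdgfd-201 p = 0.0771 and q = 0.285 in this comparison. With the inhibitor the genotypes overlapped, with a log2 fold change of -0.20 ± 0.17 for the sum of both transcripts (edgeR adjusted p = 0.606). Fitted on Pdgfd-201 alone, the inhibitor response was smaller in K27M than in wild-type cells by a log2 difference of -2.80 ± 0.55 (adjusted p = 0.00364). It was -3.70 without wild-type DMSO replicate 1. The shorter Pdgfd-202 held 14.28, 17.22 and 20.84 counts in K27M cells with the inhibitor, against 5.473, 0 and 0 in K27M cells with DMSO. In wild-type cells it held 22.73, 0 and 14.42 counts with the inhibitor and was not listed in the comparison of DMSO groups. The protein-coding gene Ddi1 lies inside Pdgfd on the opposite strand and was not listed, and since the strand setting of the counting is not given, reads from such overlapping genes cannot be told apart.

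Pdgfra, the α receptor gene, lies at chr5:75152292-75198215 on the plus strand of GRCm38. Its main transcript, Pdgfra-202, had 14.9, 17.9 and 16.5 CPM in K27M cells with the inhibitor, against 33.1, 29.2 and 31.0 CPM in K27M cells with DMSO, with no overlap. The wild-type libraries had 27.4, 24.9 and 22.4 CPM with the inhibitor, against 25.1, 29.8 and 27.3 CPM with DMSO, and these overlapped. The gene fell with the inhibitor in K27M cells, with a log2 fold change of -0.93 ± 0.081 (edgeR adjusted p = 8.18e-06, n = 3 each). In wild-type cells the change was -0.09 ± 0.083 (edgeR adjusted p = 0.398). The K27M fit holds Pdgfra-202 alone, since Pdgfra-201 was not listed for it, while the wild-type fit sums both transcripts. The 161.5 counts of Pdgfra-201 in K27M DMSO replicate 2 are thus left out of the K27M fit. The difference of the responses, fitted on Pdgfra-202 alone, was itself past the test, at -0.78 ± 0.14 (adjusted p = 0.0022), and was -0.80 without wild-type DMSO replicate 1.

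The genotype comparisons of Pdgfra ran in opposite directions with and without the inhibitor. With the inhibitor Pdgfra fell in K27M relative to wild-type cells, at a log2 fold change of -0.60 ± 0.11 (edgeR adjusted p = 0.0386). This call was lost when any single library was left out, with adjusted p from 0.0601 to 0.171. With DMSO it rose in K27M cells by 0.22 ± 0.074 (adjusted p = 0.0382), with the transcripts summed at 32.7, 36.0 and 30.7 CPM in K27M against 27.8, 28.0 and 29.3 CPM in wild-type libraries, which did not overlap. That call was lost under DESeq2 (adjusted p = 0.0615), with the replicate number as a block (0.0780), with the GC trend removed (0.10, adjusted p = 0.293) and without 4 of the 6 libraries. Pdgfra-202 alone overlapped between the DMSO groups, at 29.2 CPM in the lowest K27M and 29.8 CPM in the highest wild-type library.

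The transcripts of Pdgfra differ outside their coding sequence. Pdgfra-201 starts 3593 bases upstream of Pdgfra-202, with first exons of 152 and 451 bases, its last exon ends 14 bases further on, and the coding exons are the same. Pdgfra-201 was estimated at 0, 161.5 and about 0 counts in K27M cells with DMSO and at 36.01, 0 and 51.3 counts in wild-type cells with DMSO. In wild-type cells with the inhibitor it was estimated at 0, 0 and 60.44 counts, and it was not listed in K27M cells with the inhibitor. These splits varied between libraries of a group and give no direction.

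Pdgfrl, the receptor-like gene, lies at chr8:40926212-40990785 on the plus strand and rose with the inhibitor in both genotypes. It had 2.66, 2.83 and 2.91 CPM in K27M cells with the inhibitor, against 1.39, 1.29 and 1.51 CPM in K27M cells with DMSO. Wild-type libraries showed 4.51, 4.27 and 3.64 CPM with the inhibitor, against 0.739, 1.37 and 1.47 CPM with DMSO. Neither pair of groups overlapped, and wild-type DMSO replicate 1 was the lowest library of all. The log2 fold change was 0.99 ± 0.20 (edgeR adjusted p = 0.00197) in K27M cells and 1.82 ± 0.27 (adjusted p = 0.00227) in wild-type cells, or 1.54 without wild-type DMSO replicate 1. The difference of the responses was -0.79 ± 0.33 (adjusted p = 0.0765), which did not pass. Leaving out wild-type DMSO replicate 1 gave -0.61 (adjusted p = 0.108). Between genotypes it was -0.57 ± 0.19 with the inhibitor (adjusted p = 0.194) and 0.26 ± 0.26 with DMSO (adjusted p = 0.418). The value with DMSO was 0.03 without wild-type DMSO replicate 1. Both flanking genes also rose with the inhibitor: Slc7a2, which encodes a cationic amino acid transporter and ends 3.904 kb away, and Mtus1, 0.129 kb away, did so in both genotypes. Slc7a2 rose by 0.50 in K27M cells (adjusted p = 0.000194) and by 1.30 in wild-type cells (adjusted p = 0.00817). Mtus1 rose by 0.35 in K27M cells (adjusted p = 0.00206) and by 1.103 in wild-type cells (adjusted p = 0.00149). Unlike Pdgfrl, both were also called for K27M against wild type with DMSO, where Slc7a2 rose by 0.84 (adjusted p = 0.0214) and Mtus1 by 0.90 (adjusted p = 0.00316). Their responses to the inhibitor were smaller in K27M than in wild-type cells, by -0.77 for Slc7a2 (adjusted p = 0.0414) and -0.72 for Mtus1 (adjusted p = 0.00589). Of all genes 28.9% rose with the inhibitor in K27M cells and 21.4% in wild-type cells. With DMSO 29.8% rose in K27M relative to wild-type cells, and 15.8% differed downward in the response. The next genes outward, Adam39 and Fgl1, were not tested.

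Pdgfb, the ligand gene on chr15:79995874-80014977, minus strand, was higher with the inhibitor in both genotypes and lower in K27M than in wild-type cells with DMSO. It had 73.7, 86.0 and 82.2 CPM in K27M cells with the inhibitor, against 50.1, 46.3 and 49.1 CPM in K27M cells with DMSO. Wild-type cells had 98.9, 95.8 and 91.5 CPM with the inhibitor, against 66.0, 82.0 and 84.5 CPM with DMSO. The K27M DMSO libraries were the lowest 3 of the 12. In K27M cells Pdgfb rose with the inhibitor by 0.72 ± 0.064 on the log2 scale (edgeR adjusted p = 8.75e-06). In wild-type cells it rose by 0.33 ± 0.087 (adjusted p = 0.0219), but by 0.19 (adjusted p = 0.0292) without wild-type DMSO replicate 1, and leaving out any of the other 5 libraries lost the call (adjusted p 0.0512 to 0.0748).

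With DMSO Pdgfb fell by 0.64 ± 0.083 on the log2 scale in K27M relative to wild-type cells (edgeR adjusted p = 0.00213), and it passed in all alternatives, with the value between -0.72 and -0.28. The smallest size came with the GC trend removed (adjusted p = 0.00281). With the inhibitor the difference was -0.24 ± 0.072 (adjusted p = 0.156). The responses differed between genotypes by 0.43 ± 0.13 (edgeR adjusted p = 0.0231), and by 0.47 (adjusted p = 0.00232) when wild-type DMSO replicate 1 was left out. With the GC trend removed that difference was 0.03 (adjusted p = 0.815), and its call was lost in 8 of 21 alternatives.

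Pdgfa, which encodes an α receptor ligand, rose in K27M cells with the inhibitor and varied little otherwise. It had 25.3, 25.6 and 27.4 CPM in K27M cells with the inhibitor, against 21.3, 19.9 and 21.4 CPM in K27M cells with DMSO. For wild-type cells the values were 19.8, 23.0 and 22.2 CPM with the inhibitor, against 22.4, 24.7 and 22.3 CPM with DMSO. The K27M groups did not overlap and the wild-type groups did. The log2 fold change with the inhibitor was 0.31 ± 0.063 (edgeR adjusted p = 0.00197) in K27M cells and -0.06 ± 0.099 (adjusted p = 0.633) in wild-type cells. Their difference was 0.41 ± 0.11 (edgeR adjusted p = 0.0139), and 0.14 (adjusted p = 0.342) with the GC trend removed, and its call was lost in 5 of 21 alternatives. Between genotypes Pdgfa was at 0.26 ± 0.086 with the inhibitor (adjusted p = 0.19) and -0.11 ± 0.064 with DMSO (adjusted p = 0.178).

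The long form Pdgfa-201, whose last coding exon is printed above, was estimated to hold 40.04, 36.57 and 44.82% of Pdgfa counts in K27M cells with the inhibitor, against 23.9, 37.1 and 19.2% in K27M cells with DMSO. For wild-type cells this share was 20.4, 28.2 and 22.3% with the inhibitor, against 46.3, 37.5 and 27.4% with DMSO. The short coding sequence is shared by Pdgfa-202, Pdgfa-203 and Pdgfa-204. Together these held 49.3, 54.1 and 48.8% in K27M cells with the inhibitor, against 64.5, 54.1 and 68.2% in K27M cells with DMSO. In wild-type cells they held 63.0, 52.0 and 59.9% with the inhibitor, against 42.2, 48.1 and 59.7% with DMSO. The short form thus held the larger share in every library but wild-type DMSO replicate 1. Such shares are estimates of kallisto, and libraries of a group differed widely in them, wild-type DMSO from 27.4 to 46.3% for the long form.

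Pdgfc, which encodes another α receptor ligand, was lowest in wild-type cells with DMSO. It had 23.2, 21.8 and 21.6 CPM in K27M cells with the inhibitor, against 20.9, 22.9 and 17.8 CPM in K27M cells with DMSO. In wild-type cells it had 21.8, 22.3 and 22.0 CPM with the inhibitor, against 16.3, 16.3 and 14.6 CPM with DMSO. The wild-type DMSO libraries were below all the others. Pdgfc rose with the inhibitor in wild-type cells by 0.51 ± 0.096 on the log2 scale (edgeR adjusted p = 0.00594), against 0.11 ± 0.093 in K27M cells (adjusted p = 0.337). The difference of these responses was -0.37 ± 0.13 (adjusted p = 0.0471), which was lost under DESeq2 (0.0586), with the GC trend removed (-0.20, adjusted p = 0.276) and in 9 fits that left out a library.

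With DMSO Pdgfc rose by 0.42 ± 0.12 in K27M relative to wild-type cells (edgeR adjusted p = 0.0213). With the GC trend removed this was 0.20 (adjusted p = 0.147), and 4 of the 6 fits without a library lost the call. With the inhibitor the genotypes were at 0.01 ± 0.071 (adjusted p = 0.951). The decay-annotated Pdgfc-202 took 57.5 to 63.1% of Pdgfc counts in K27M cells with the inhibitor, 51.4 to 61.6% in wild-type cells with the inhibitor, 56.0 to 69.1% in K27M cells with DMSO and 43.7 to 64.5% in wild-type cells with DMSO, and all groups overlapped.

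**Figure D2:**
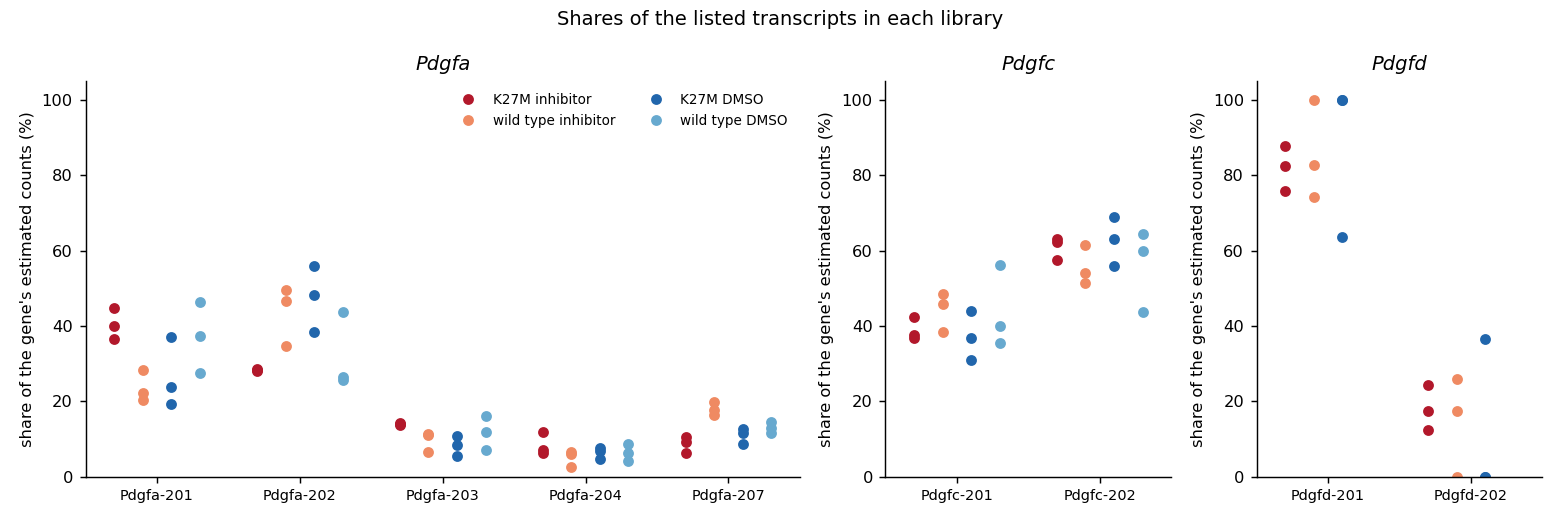
Share of each gene's estimated counts, in percent, taken by the listed transcripts of Pdgfa, Pdgfc and Pdgfd in each library (points), by group from K27M with the inhibitor on the left to DMSO groups on the right. Pdgfa-201 spans 19.2 to 46.3% over the 12 libraries, and wild-type DMSO is left out for Pdgfd because Pdgfd-202 is not listed there.

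Read against all genes, the counts of members called were as follows. With the inhibitor in K27M cells 5 of 7 rose and 1 fell, where 28.9% of all 13503 genes tested rose and 27.3% fell. With the inhibitor in wild-type cells 5 of 7 rose, where 21.4% of 12870 genes rose and 20.7% fell. For K27M against wild type with DMSO, 2 of the 5 members tested rose and 1 fell, against 29.8% and 30.4% of 13129 genes, a share close to the background. For K27M against wild type with the inhibitor 1 member fell, where 1.23% of 13060 genes fell and 0.567% rose. The inhibitor response differed upward in K27M cells for 2 members and downward for 3, where 20% and 15.8% of 13040 genes did. Pdgfrb and Pdgfd are among these counts only because of their inhibitor libraries. The comparisons share groups, and their counts are not independent.

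**Figure D3:**
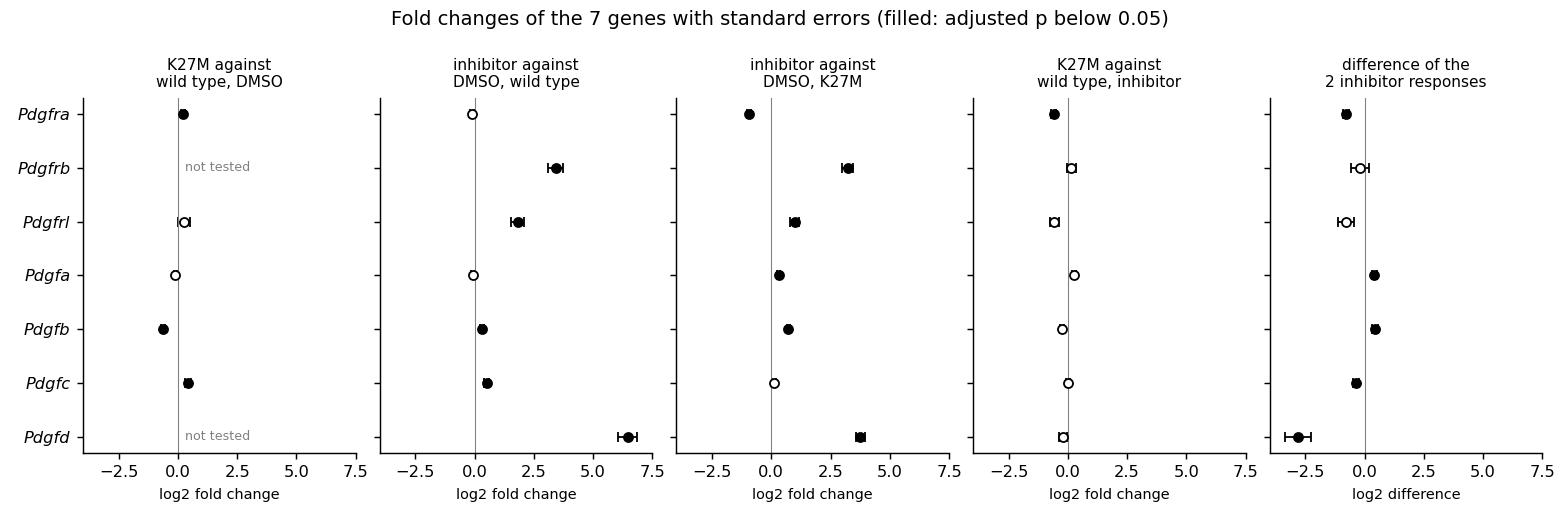
Log2 fold changes (points) with standard errors (bars) of the 7 genes, in panels for K27M against wild type with DMSO, the inhibitor against DMSO in wild-type and in K27M cells, K27M against wild type with the inhibitor, and the difference of the inhibitor responses. Filled points passed an adjusted p of 0.05; Pdgfd and Pdgfrb lie far right of 0 in both inhibitor panels, and Pdgfra is the member left of 0 that passed in K27M cells.

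In the authors' deposited table of sleuth results per transcript, a q-value below 0.05 was given to 5 of 13 listed member transcripts for the inhibitor in K27M cells, and 2 of 13 for the inhibitor in wild-type cells. In K27M cells the authors' deposited table gave Pdgfb q = 1.23e-13, Pdgfra-202 q = 1.79e-13, Pdgfd-201 q = 2.94e-06, Pdgfrb q = 5.87e-05 and Pdgfd-202 q = 0.0455. In wild-type cells the authors' deposited table gave Pdgfd-201 q = 1.22e-06 and Pdgfrb q = 0.0107, while Pdgfrl had q = 0.091 and Pdgfb q = 0.235. For K27M against wild type the authors' deposited table listed 1 of 13 in each condition: Pdgfra-202 with the inhibitor (q = 0.0293) and Pdgfb with DMSO (q = 1.84e-07). Several members called in the gene-level fit had no transcript below 0.05 there. In the authors' deposited table the lowest q for K27M against wild type with DMSO was 0.207 for Pdgfc and 0.590 for Pdgfra. For the inhibitor in K27M cells it was 0.315 for Pdgfrl and 0.103 for Pdgfa in the authors' deposited table, and in wild-type cells 0.542 for Pdgfc.

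GC content moved with the fold changes in this series. Pdgfb has 60.0% GC, at percentile 94.9 among genes, Pdgfa 55.2%, Pdgfra 48.0%, Pdgfc 46.8% and Pdgfd 40.6%. Across genes the Spearman correlation of GC with log2 fold change was -0.70 for K27M against wild type with DMSO and 0.67 for the difference of the inhibitor responses. It was -0.40 for the inhibitor in wild-type cells and 0.27 for the inhibitor in K27M cells. Genes are not independent, and no p is given. With the trend removed Pdgfra still fell with the inhibitor in K27M cells and all member calls of that comparison were kept. The differences in response remained past the test for Pdgfra (-0.70, adjusted p = 0.00423) and Pdgfd (-2.21, adjusted p = 0.0137).

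**Figure D4:**
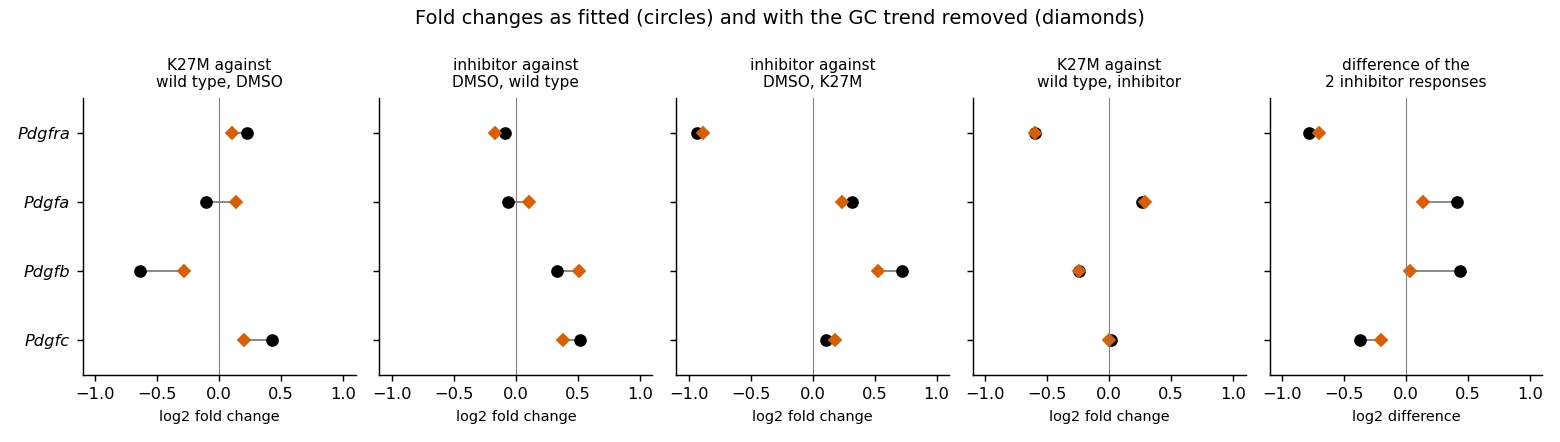
Log2 fold changes of Pdgfra, Pdgfa, Pdgfb and Pdgfc as fitted (circles) and with the GC trend removed (diamonds), in the same comparisons, on a log2 axis from -1.1 to 1.1. For Pdgfb the fall in K27M cells with DMSO shrinks to -0.28 and the difference of responses to 0.03, while the Pdgfra fall in K27M cells with the inhibitor keeps its place.

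The other genes of the PDGF pathway were read from lists whose members were tested in the same fits. Among 10 genes of ligand processing and extracellular binding, 6 rose and 1 fell with the inhibitor in K27M cells (median log2 fold change 0.29), and 3 rose and 2 fell in wild-type cells (median -0.23). Over all genes 28.9% rose and 27.3% fell in K27M cells, and 21.4% rose and 20.7% fell in wild-type cells. The proprotein convertases Pcsk5 and Pcsk6, of the family that cuts ligand precursors, rose in both: by 3.13 and 3.23 in K27M cells (edgeR adjusted p = 3.2e-10 and 1.57e-08) and by 2.77 and 2.47 in wild-type cells (adjusted p = 7.02e-06 and 1.32e-05). Plat, the tissue plasminogen activator that cuts PDGF-C, fell in both, by 0.37 in K27M cells and 0.77 in wild-type cells. With DMSO 1 gene rose and 6 fell in K27M cells (median -0.48), where 29.8% of all genes rose and 30.4% fell. The list's median GC was 54.6%, and with the GC trend removed 4 fell (median -0.26). The rise, of Nrp1, was lost without wild-type DMSO replicate 3 and without K27M DMSO replicate 1, and 4 fell without K27M DMSO replicate 1 or 2. In that comparison Sparc, which binds PDGF-B, was at -0.64 (adjusted p = 0.000487) and Nrp1, a co-receptor, at 0.73 (adjusted p = 0.015). Between genotypes with the inhibitor 0 of 10 were called by edgeR and 0 by DESeq2, while 3 were higher and 2 lower in K27M cells at an unadjusted p below 0.05. The median of all genes was within 0.05 of 0 in every comparison.

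Of 20 genes of receptor-proximal signalling and its phosphatases, 4 rose and 8 fell with the inhibitor in K27M cells (median -0.08), and 3 rose and 3 fell in wild-type cells (median 0.17). Across all genes the shares were 28.9% rising and 27.3% falling in K27M cells, and 21.4% rising and 20.7% falling in wild-type cells. The wild-type count depended on the fit: 7 rose and 3 fell under DESeq2, 10 and 3 with the replicate block, 1 and 2 with the GC trend removed (median 0.05), and 8 and 6 without wild-type DMSO replicate 1. In K27M cells 3 rose and 5 fell with the GC trend removed. In K27M cells the adaptors Nck2 (0.38) and Shc1 (0.32) were highest among those that rose, and the ubiquitin ligase gene Cbl (-0.27) fell. Between genotypes with DMSO 8 rose and 4 fell in K27M cells (median 0.09), where 29.8% of all genes rose and 30.4% fell, with the adaptor Nck1 at 0.96 and the kinase gene Src at -0.60 (adjusted p = 0.00196). For Nck1 that value was 0.12 (adjusted p = 0.3) with the GC trend removed. Rasa1 had the largest rise, at 1.22 (edgeR adjusted p = 0.0146), a call lost in 2 of 15 alternatives. With the GC trend removed Rasa1 was at 0.51 (adjusted p = 0.0129). With the inhibitor only the adaptor Gab1 was called between genotypes, at -0.24 (adjusted p = 0.0482), a call lost in 8 of its 15 alternatives.

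The related receptor kinases and ligands, 15 genes of which 12 were tested in K27M cells, had 8 rising and 3 falling with the inhibitor there, and 5 rising and 2 falling among 11 in wild-type cells. Between the DMSO groups 11 were tested, so not all of the 12 passed the filter there. A gene that passed only through its inhibitor libraries had to rise. The shares over all genes were 28.9% and 27.3% in K27M cells and 21.4% and 20.7% in wild-type cells, and under DESeq2 1 gene of the list fell in K27M cells. The VEGF receptor gene Flt1 rose by 2.42 in K27M cells (adjusted p = 1.78e-06) and by 1.54 in wild-type cells (adjusted p = 0.000519), and Flt4 rose by 2.57 in wild-type cells (adjusted p = 0.000656). The stem cell factor gene Kitl fell by 0.64 in K27M cells (adjusted p = 0.000551). With DMSO, Vegfa was higher in K27M cells by 0.80 (adjusted p = 0.0039), while Kit, a neighbour of Pdgfra on chromosome 5, was lower by 0.34 (adjusted p = 0.00482). Between genotypes with the inhibitor 0 of 12 were called by edgeR and 0 by DESeq2, while 3 were higher in K27M cells at an unadjusted p below 0.05.

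Immediate early genes that PDGF is known to induce in fibroblasts formed the fourth list. With the inhibitor 11 of 15 tested rose and 0 fell in K27M cells by edgeR (median log2 fold change 0.54), 9 and 0 by DESeq2, and 0 were lower at an unadjusted p below 0.05, where 28.9% of all genes rose and 27.3% fell. In wild-type cells 3 rose and 4 fell of 16 (median 0.01), where 21.4% of all genes rose and 20.7% fell. With the GC trend removed 5 rose there. The transcription factor genes Egr3 and Egr2 rose in both: by 1.40 and 1.24 in K27M cells (edgeR adjusted p = 8.3e-05 and 2.17e-05) and by 0.89 and 1.15 in wild-type cells. Junb fell by 0.88 in wild-type cells with the inhibitor (adjusted p = 0.00439). With DMSO 0 rose and 13 of 16 fell in K27M cells by edgeR (median -0.60), 0 and 12 by DESeq2, and 0 were higher at an unadjusted p below 0.05, where 29.8% of all genes rose and 30.4% fell, with Junb at -1.22 (adjusted p = 0.000569) and Egr3 at -0.91. With the GC trend removed the counts were 10 of 16 falling with DMSO and 10 of 15 rising with the inhibitor in K27M cells. The list's median GC was 55.5%, against 50.4% over all genes. The inhibitor responses of Junb, which fell in wild-type cells, differed by 1.45 on the log2 scale, K27M minus wild type (edgeR adjusted p = 0.000887).

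The labelled cell type was checked against marker lists. All 10 neural stem cell markers were listed in every group, summing to 6835 to 6911 CPM in K27M and 6748 to 6866 CPM in wild-type libraries with the inhibitor, and 6734 to 6870 CPM in K27M and 7409 to 7739 CPM in wild-type libraries with DMSO. Of 6 microglial markers 5 were not listed or at 0 in every group, and of 6 endothelial markers Cdh5, Tek and Cldn5 were likewise absent. The endothelial list summed to 4.89 to 5.92 CPM in K27M and 2.39 to 3.90 CPM in wild-type libraries with the inhibitor, against 6.88 to 7.56 CPM in K27M and 4.88 to 5.80 CPM in wild-type libraries with DMSO. Oligodendrocyte precursor markers, whose cells express Pdgfra, summed to 4740 to 5000 CPM in K27M cells with the inhibitor, against 5582 to 5829 CPM in K27M cells with DMSO. In wild-type cells they summed to 4669 to 5047 CPM with the inhibitor, against 6511 to 6661 CPM with DMSO. Of the 10 precursor markers tested 3 rose and 5 fell with the inhibitor in K27M cells, and 2 rose and 4 fell in wild-type cells. Of the 10 neural stem cell markers 3 rose and 5 fell with the inhibitor in K27M cells, and 2 rose and 5 fell in wild-type cells. The shares of all genes were 28.9% rising and 27.3% falling in K27M cells, and 21.4% and 20.7% in wild-type cells.

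Neuronal and astrocyte markers moved with the inhibitor as well. Of 8 neuronal markers 6 rose and 2 fell in K27M cells (median log2 fold change 0.96), and 6 rose and 1 fell in wild-type cells (median 1.37). Over all genes 28.9% rose and 27.3% fell in K27M cells, and 21.4% rose and 20.7% fell in wild-type cells. Stmn2 was below the filter between the DMSO groups, so it was tested through its inhibitor libraries and had to rise. Of the 7 other neuronal markers 5 rose in each genotype. The list summed to 1571 to 1887 CPM in K27M cells with the inhibitor, against 1086 to 1153 CPM with DMSO, and to 1322 to 1762 CPM in wild-type cells with the inhibitor, against 767 to 1090 CPM with DMSO. Of 8 astrocyte markers 3 rose and 5 fell in K27M cells (median -0.46), and 1 rose and 4 fell in wild-type cells (median -0.17), against the same shares of all genes. They summed to 2204 to 2283 CPM in K27M cells with the inhibitor, against 2693 to 2706 CPM with DMSO, and to 2574 to 2751 CPM in wild-type cells with the inhibitor, against 3070 to 3092 CPM with DMSO. The part of these cell types in the member results was not tested.

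Markers of the cells that usually express Pdgfrb were read in the same way. Of 10 fibroblast and mesenchymal markers, 8 were tested with the inhibitor in K27M cells and 7 in wild-type cells. Of these 5 and 4 were below the filter between the DMSO groups, so that they were tested through their inhibitor libraries and had to rise, as all of them did. They were Col3a1, Dcn, Bgn and Twist1 in both genotypes, and Lum in K27M cells. Of the 3 markers above the filter with DMSO as well, Pdpn rose in K27M cells by 0.27 (adjusted p = 0.00344), and in wild-type cells the adjusted p of Col1a1, Pdpn and Fbln1 ran from 0.108 to 0.314. Col1a2 and Postn were not listed in any group. The list summed to 144 to 168 CPM in K27M and 151 to 181 CPM in wild-type libraries with the inhibitor, against 94.4 to 96.0 CPM in K27M and 101 to 126 CPM in wild-type libraries with DMSO. Of 10 pericyte and smooth muscle markers, 3 rose and 2 fell of 6 tested in K27M cells, and 2 rose and 1 fell of 5 in wild-type cells. Of all genes 28.9% rose and 27.3% fell in K27M cells, and 21.4% rose and 20.7% fell in wild-type cells. The rises of Rgs5 in both and of Anpep in K27M cells were again of genes below the filter with DMSO. Rgs5 rose by 3.432 in K27M and 3.396 in wild-type cells, while Notch3 fell by 0.32 and 0.51. Myh11, above the filter with DMSO as well, was at 1.91 in K27M cells (edgeR adjusted p = 0.000366) and 1.56 in wild-type cells (0.0177). Acta2 was at -2.11 in K27M cells (edgeR adjusted p = 0.000917) and 0.64 in wild-type cells (0.145). Between genotypes with the inhibitor Acta2 was at -2.22 (adjusted p = 0.037). Tagln was not called in any of these comparisons. The defining markers Des and Vtn were absent, and the summed level was 214 to 230 CPM in K27M cells with the inhibitor, against 257 to 277 CPM with DMSO. The part of these cells in the Pdgfrb and Pdgfra results was not tested.

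By correlation of log2 CPM over the 12 libraries, among 6403 named genes at or above the median level, Pdgfrb was most like Gjc1 (r = 0.995), Frmd4a and Adam12, and Pdgfd most like Gnao1 (0.992), Mex3a and Nav3. The gene most unlike Pdgfd was the oligodendrocyte lineage factor gene Olig1, at r = -0.997. Pdgfra was most like Xrcc5 (0.965), Adcyap1r1 and Bhlhe40, and most unlike the neural stem cell marker Nes (-0.924). Pdgfb was most like Smarcc2 (0.987) and Pdgfrl most like Rcn1 (0.984). The likeness was weaker for Pdgfc, at most 0.945 with Ythdf2, and for Pdgfa, at most 0.898 with Mcoln1. The libraries share groups, so these values describe the 4 group levels more than 12 separate points.

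In the wild-type DMSO group replicate 1 was unlike the rest. The chi-square per gene between it and the other two libraries was 24.03 and 20.1, against 3.198 between those, and 2.40 to 10.3 within the other groups. Without it 9278 genes were called for K27M against wild type with DMSO, against 7897 with it, and 7703 for the inhibitor in wild-type cells, against 5420. Values of Pdgfb, Pdgfrl, Pdgfd and Pdgfra that rest on it are given with and without it above, and the member calls of those comparisons were kept without it.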

How the data were processed

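Polyadenylated RNA was sequenced from 12 libraries, 3 in each of 4 groups. Reads were quantified with kallisto and compared with sleuth on GRCm38 (mm10), per the submitters' processing notes. The sources used here do not give versions, annotation or strand setting. The deposited tables, 1 per comparison, hold estimated counts per transcript and library, divided by a size factor, since the same library differs between tables by a constant. With these undone, tables agreed to 4.8e-10, and 43.9 to 56.5% of low values were whole (tolerance 0.01). They also hold the authors' p-values and q-values and effects as natural logs. Each listed transcript has at least 5 counts in 3 or more libraries, so a transcript can be missing from 1 table and listed in another: 34436 of 44294 were in all tables. Rows with no gene name held 0.45 to 0.58% of counts and were left out.

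Size factors were undone, estimated counts summed by gene, rounded and tested with edgeR 4.0.16 (quasi-likelihood, TMM, filterByExpr) in R 4.3.3, with Benjamini-Hochberg adjustment over all genes and a threshold of 0.05; each two-group comparison used its own 6 libraries, and the difference of responses used the transcripts in all tables. CPM and length-scaled levels of the members are over transcripts listed in every comparison. The exception is the summed Pdgfra CPM with DMSO, taken from the fit of that comparison. Marker sums are over transcripts listed in any comparison. Alternatives were DESeq2 1.42.0, other size factors, no filter, a replicate block, removal of the GC trend, median centring, other transcript sums, the deposited values as they stand, and each library left out. The fit was tested on simulated data with known changes. Correlations of same-numbered deviations ran from -0.035 to 0.322. The highest, 0.286 and 0.322, were replicates 1 and 2 for the inhibitor in wild-type cells. The labels do not say whether the numbers pair the libraries, so the main fits leave them unpaired and the block is an alternative. All 7 members were named in every comparison, up to 4 called genes of each list (the 2 largest rises and falls), and the 3 most alike genes by correlation. The members and lists were chosen with earlier results of these data known; the settings of the list counts were chosen after seeing the data. Intervals cover counting error only.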

Additional observations from a re-analysis of the deposited data

Results flagged for a closer look

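For 5 of the 7 genes the response to the inhibitor differed between K27M and wild-type cells past the test of that difference (edgeR's quasi-likelihood test). Pdgfra had a log2 difference of -0.78, K27M minus wild type: it fell with the inhibitor in K27M cells and was at -0.09 in wild-type cells. Pdgfd had -2.80, resting on wild-type DMSO libraries with 3 counts in all. Pdgfb had 0.43 and Pdgfa 0.41, and Pdgfc had -0.37. With the GC trend removed the test was still passed by Pdgfra and Pdgfd and no longer by Pdgfb (0.03), Pdgfa (0.14) and Pdgfc (-0.20). Over all genes tested 20% differed upward and 15.8% downward in the same test.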

How the results depend on the processing

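Over 33 member results and 537 alternatives, 476 kept direction and side of the threshold, 50 lost the call, 2 gained it and 9 changed sign, none of them a called value. All alternatives kept the inhibitor calls of K27M cells. The changes of sign were Pdgfa for K27M against wild type with DMSO (0.14 with the GC trend removed, also with the block), Pdgfa for the inhibitor in wild-type cells (0.10 with the GC trend removed, 0.10 with the block added, and -0.13 to 0.0055 with a library left out, highest without wild-type inhibitor replicate 1), Pdgfc between genotypes with the inhibitor (-0.0013 with the GC trend removed, -3.6e-05 and -0.0055 without replicate 1 of wild type or of K27M, with all such fits between -0.0055 and 0.029) and the Pdgfrb difference of responses (-0.48 to 0.022 with a library left out, highest without wild-type DMSO replicate 2).

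Counts moved as follows, and the cause was not tested. For K27M against wild type with DMSO, genes called were 7897, 5199 under the replicate block combined with GC trend removal, and 5027 to 9278 with a library left out; members called were 3, or 1 with the GC trend removed, with or without the block, and 1 to 4. For the inhibitor in wild-type cells genes called ranged from 3344 to 7703. Between genotypes with the inhibitor they were 234, or 539 with the replicate block, 741 with the GC trend removed and 802 with both, and 17 to 195 with a library left out, when 0 members were called. For the difference of responses they were 2792 with the GC trend removed, with 2 members called, 2 also with the block, and 2 to 5 with a library left out. The replicate block removed the Pdgfra call with DMSO (edgeR adjusted p = 0.0780) and no other member call on its own. The labels share replicate numbers but do not say whether these numbers pair the libraries. Depth limits Pdgfd and Pdgfrb with DMSO, where single libraries hold 0 to 15 counts.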

Other observations

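Of the genes next to Pdgfra on chromosome 5, Chic2, 107.5 kb away, had the same calls as Pdgfra in 4 of the 5 comparisons. It fell with the inhibitor in K27M cells by 0.65 on the log2 scale (edgeR adjusted p = 8.49e-06) and was at 0.04 in wild-type cells (adjusted p = 0.655), a difference of responses of -0.66 (adjusted p = 0.000592). With DMSO Chic2 rose by 0.59 in K27M relative to wild-type cells (adjusted p = 0.000946), and with the inhibitor it was at -0.11 (adjusted p = 0.481), where Pdgfra fell. Kit, 376.7 kb away, was called opposite to Pdgfra. It rose with the inhibitor in K27M cells by 0.37 (edgeR adjusted p = 0.000365), with a difference of responses of 0.41 (adjusted p = 0.00441). With DMSO it fell by 0.34 in K27M relative to wild-type cells (adjusted p = 0.00482), and it was not called in the other comparisons. The VEGF receptor gene Kdr, 734.6 kb away, rose with the inhibitor by 1.25 in K27M cells (adjusted p = 5.78e-06) and by 0.94 in wild-type cells (adjusted p = 0.000907). Next to Pdgfc, the glycine receptor gene Glrb fell by 0.28 with the inhibitor in K27M cells (adjusted p = 0.000952) and rose by 0.76 in K27M relative to wild-type cells with DMSO (adjusted p = 0.00275). Apobec3, near Pdgfb, fell with the inhibitor by 0.65 in K27M cells and by 0.65 in wild-type cells. Of the genes next to Pdgfrb, Slc6a7, Cdx1 and Csf1r were not tested and Hmgxb3 was not called in any comparison.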
